A study of Mus musculus with 2 samples.

Results

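The 10 genes described here encode proteins that coat lipid droplets or control the breakdown of the fat stored in them: the perilipins Plin2, Plin3, Plin4 and Plin5, the CIDE proteins Cidea, Cideb and Cidec, the droplet enzyme Hsd17b13, the triglyceride lipase Pnpla2 and its inhibitor G0s2. A probe set is a group of short probes on the array whose brightness is summarised as 1 signal. The members were found as the probe sets annotated with exactly 1 gene symbol that is among these 10. This gave 13 of 34958 such probe sets, and 10 of 18194 genes. The values come from liver of ICR mice, an outbred stock, on 2 Affymetrix arrays. The control group ate the basal diet CRF-1 and the other group the same diet with 500 ppm diosgenin, a steroid sapogenin made by plants, from 9 weeks of age for 4 weeks. The mice were 13 weeks old at collection, and the labels give no transgene, deletion or other agent in either group. Each diet is represented by 1 array of RNA pooled from 3 mice. There are therefore no replicates, no p-values and no errors between mice, and every difference is one between 2 pools. Mice were housed 3 to a cage, and whether cage and diet coincide is not given in the labels. Sex, the hour of collection and any fast before it are not given there either. In bulk liver RNA, fewer cells of a type and less RNA per cell cannot be told apart.

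A lipid droplet is a core of triglyceride and sterol ester inside a single layer of phospholipid, and hepatocytes hold many of them. Perilipins cover this surface and limit the access of lipases, and CIDE proteins move lipid between droplets or onto lipoproteins. Pnpla2, also called ATGL, removes the first fatty acid from a triglyceride, Abhd5 activates it and G0s2 inhibits it. Many of these genes are known targets of PPARα, the fatty acid receptor of liver, and several accumulate in fatty liver.

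The members did not move as a group. Where a gene had several probe sets, the brightest over both arrays stood for it. Genes whose brightest probe set averaged at least 28.4, which 40% of all probe sets do, were taken as above the filter. Of the 10 genes 7 passed, and Plin4, Cidea and Cidec were below it. On the diosgenin array 3 of the 7 were higher and 4 lower than on the control array, where the shares over all 9732 genes that passed were 49.0% and 51.0%. The median log2 ratio of diosgenin over control was −0.036 for the 7 genes and −0.0053 for all genes. At least 1.5-fold higher was 1 of the 7, Hsd17b13 by its brightest probe set, beside 2.84% of all genes, and at least 1.5-fold lower were 0 of the 7, beside 3.61% of all genes. Hsd17b13 was also the only member at least 2-fold higher, where 0.555% of all genes were, and 0 members were at least 2-fold lower, beside 0.853% of all genes. The other 6 were within 1.5-fold, as were 93.6% of all genes. As a yardstick inside these arrays, the standard deviation between log2 ratios within a gene was 0.28, from 4079 genes with 2 or more probe sets above the filter. Plin5, Pnpla2 and G0s2 were farther from 0 than this, and Plin2, Plin3 and Cideb were not. The 1000 probe sets nearest in mean signal give another yardstick. Plin5 and G0s2 lay just below the central 95% of their ratios, which ended at −0.477 and −0.518, and Pnpla2 lay inside it, from −0.54 to 0.49. Neither yardstick holds any difference between mice.

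**Figure D1:**
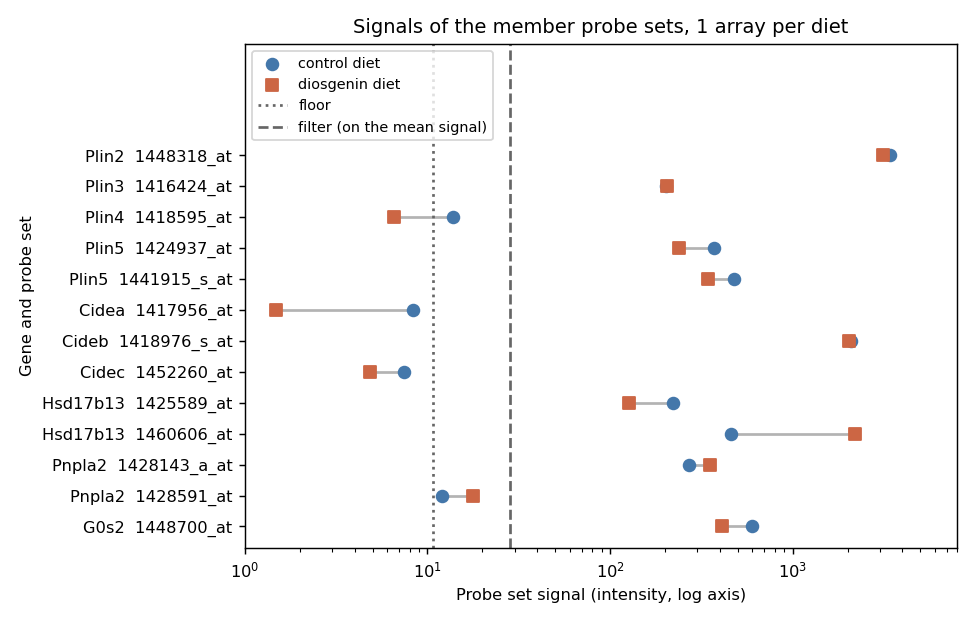
Signal of each of the 13 member probe sets on the control array (circles) and the diosgenin array (squares), on a log axis, with the floor of 10.7 (dotted) and the filter of 28.4 on the mean signal (dashed). Hsd17b13 is joined by the longest line above the filter, from 461 to 2203, while its other probe set goes the opposite way, from 222 to 127. The circle of Plin3 lies under its square.

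Among the perilipins, Plin5 was lower by both of its probe sets and the others above the filter lay close to 0. Plin5 is the perilipin of oxidative tissues, and it ties droplets to mitochondria. Its probe set 1441915_s_at read 480 with the control diet and 344 with diosgenin, which is 1.39-fold lower. Probe set 1424937_at read 373 and 239, 1.56-fold lower. Both signals were thus lower with diosgenin, with log2 ratios of −0.48 and −0.64. The ending _s_at marks a probe set that can bind several transcripts. The second probe set has no such ending, and by it alone Plin5 would pass 1.5-fold. Among the 1000 probe sets nearest in mean signal, 2.5% and 1.4% had lower ratios than these. The log2 ratios of both Plin5 probe sets were 0.16 apart, closer than in 67.4% of the 4079 genes with several probe sets, where the median distance was 0.26. The 250 bases before the further upstream of its 2 start sites in the RefSeq promoter table, at chr17:56117549-56117798 on the minus strand of GRCm38.p6, are shown because Plin5 is a member that was lower by every probe set. Capitals mark the letters AGGTCA, the core to which many nuclear receptors bind, on either strand, so that it reads TGACCT where it lies on the other strand. The window of the other Plin5 start site, not shown, does not hold these letters.
Plin5: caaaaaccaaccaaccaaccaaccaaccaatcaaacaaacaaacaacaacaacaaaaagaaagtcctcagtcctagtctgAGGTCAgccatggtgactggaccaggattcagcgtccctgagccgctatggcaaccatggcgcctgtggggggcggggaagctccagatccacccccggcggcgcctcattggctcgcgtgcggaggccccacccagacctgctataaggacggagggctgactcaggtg

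Plin2, the main perilipin of hepatocytes, whose protein is kept stable by stored fat, read 3425 with the control diet and 3109 with diosgenin. It was 1.10-fold lower, with a log2 ratio of −0.14, and 14.9% of the 1000 probe sets nearest in signal had a lower ratio. Plin3, a perilipin that is also found free in the cytosol and moves to new droplets, read 203 and 205. Its log2 ratio of 0.013 was the smallest in size among the members above the filter. Plin4, a perilipin best known from adipocytes and muscle, was dim on both arrays, at 13.8 and 6.56. The second value was under the floor of 10.7, taken so that 40% of signals lie below it, and values there have no order, so no fold is given. In the RefSeq annotation of GRCm38.p6, Plin4 and Plin5 are neighbours on chromosome 17 with 0 protein-coding genes between them, and 7 such genes lie between Plin5 and Plin3. Of these genes Plin5 was lower and Plin3 was level. Plin4, the direct neighbour of Plin5, was too dim to be placed, so whether it shares the ratio of Plin5 cannot be said.

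Of the CIDE genes, Cideb was bright and level and the other two were under the floor on both arrays. Cideb is the CIDE protein of hepatocytes and helps to load lipid onto very low density lipoproteins. Its probe set read 2090 with the control diet and 2038 with diosgenin, a log2 ratio of −0.036. This probe set, 1418976_s_at, also has the _s_at ending, and no other probe set of Cideb was found to check it against. Cidec, known as Fsp27, makes droplets fuse and grow and is high in adipocytes and in steatotic liver. It read 7.48 and 4.83, both under the floor. Cidea, which has a like role and is best known from brown adipocytes, read 8.30 and 1.47, also both under the floor. For these 2 genes no ratio is given because all 4 values were under the floor, and the arrays show only that both were dim in both pools.

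Hsd17b13 had the largest difference of the members, and its probe sets contradicted each other. It encodes a hepatocyte enzyme of the hydroxysteroid dehydrogenase family that sits on the droplet surface and is known to be abundant in fatty liver. Probe set 1460606_at read 461 with the control diet and 2203 with diosgenin, a signal 4.78-fold higher. Of the 1000 probe sets nearest in signal, 0.1% had a higher ratio. Probe set 1425589_at read 222 and 127, 1.74-fold lower, and 0.9% of its 1000 neighbours in signal had a lower ratio. The gene was therefore far from 0 in both directions, with log2 ratios of 2.26 and −0.80. Neither probe set has an ending that marks binding to several transcripts. The 2 values were 3.06 apart on the log2 scale, the fourth largest distance among the 4079 genes with several probe sets, and 0.0981% of those genes were at least that far apart. Only 11 of the 4079, which is 0.27%, had a probe set at least 1.5-fold higher and another at least 1.5-fold lower. A direction for Hsd17b13 as a gene cannot be given from these arrays. Which transcripts each probe set reads was not tested. The 250 bases before its start site, at chr5:103977389-103977638 on the minus strand of GRCm38.p6, are shown because its difference was the largest of the members, with the same letters in capitals.
Hsd17b13: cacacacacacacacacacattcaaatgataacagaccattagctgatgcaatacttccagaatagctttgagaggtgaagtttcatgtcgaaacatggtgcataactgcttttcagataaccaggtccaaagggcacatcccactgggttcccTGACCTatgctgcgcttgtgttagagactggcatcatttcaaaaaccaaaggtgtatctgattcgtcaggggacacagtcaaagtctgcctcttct

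**Figure D2:**
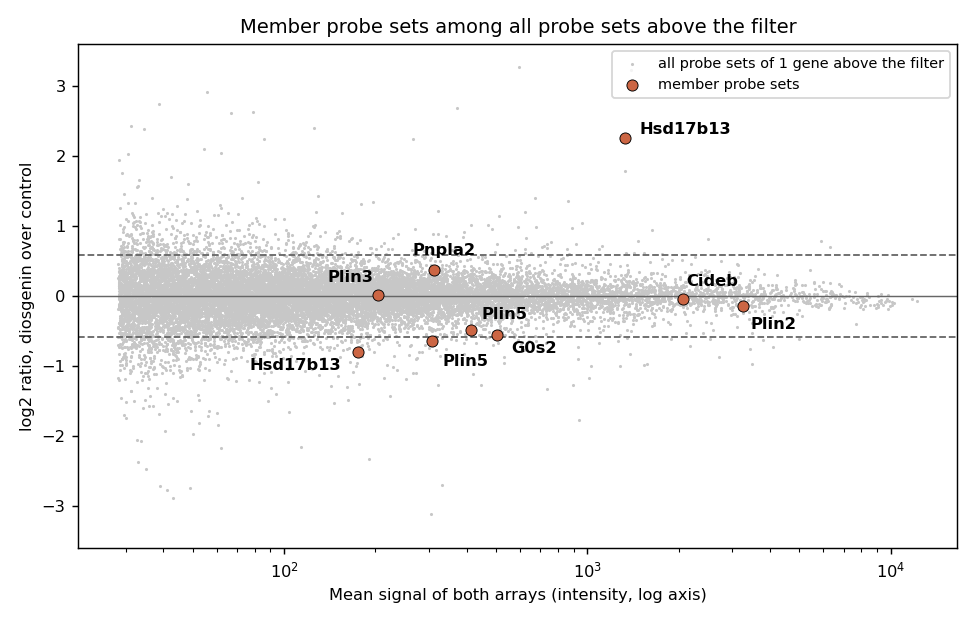
log2 ratio of diosgenin over control against the mean signal of both arrays (log axis) for the 16259 probe sets of 1 gene above the filter (grey) and the 9 member probe sets above it (orange), with dashed lines at 1.5-fold. Hsd17b13 appears at 2.26 and again at −0.80, the Plin5 pair and G0s2 lie near the lower line, and Plin2, Plin3 and Cideb lie near 0.

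**Figure D3:**
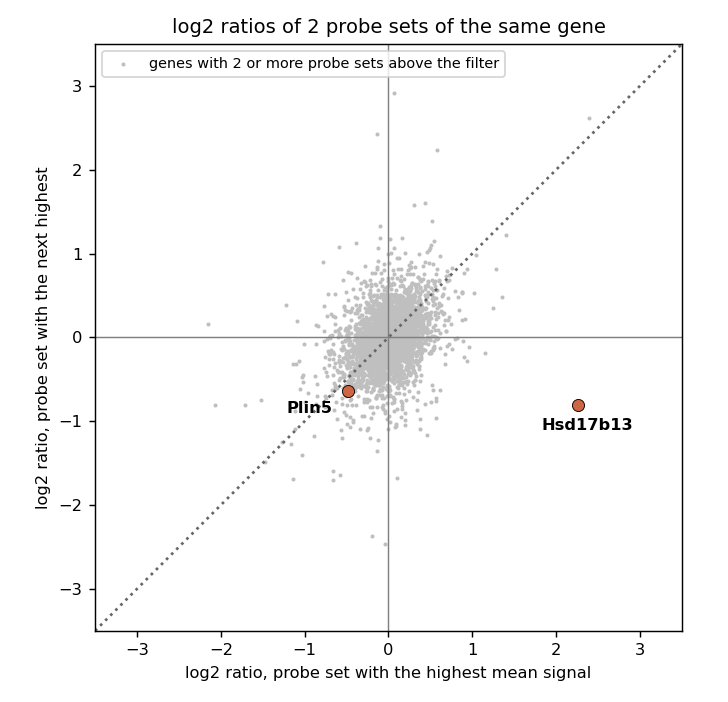
log2 ratio of the second brightest probe set against that of the brightest for each of the 4079 genes with 2 or more probe sets above the filter (grey), where the dotted line marks equal values. Plin5 lies beside the line at −0.48 and −0.64, and Hsd17b13 lies far from it at 2.26 and −0.80.

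Of the 10 members 3 have 2 probe sets and 7 have 1. With both probe sets above the filter there were only Plin5 and Hsd17b13, and 1 of these 2 had a single sign, beside 51.4% of the 4079 genes. In the plot of probe set pairs, Plin5 lies among the bulk of genes whose pairs are close and Hsd17b13 stands outside the cloud. Hsd17b11, a related droplet enzyme, is the next protein-coding gene to Hsd17b13 on chromosome 5, with 0 between them. It read 1979 and 2372 by probe set 1434642_at, 1.20-fold higher, and 453 and 803 by 1421011_at, 1.77-fold higher. Both of its probe sets above the filter were higher on the diosgenin array, and whether any of these probe sets reads both genes was not tested.

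The lipase and its inhibitor went opposite ways, each by less than 1.5-fold. Pnpla2 read 272 with the control diet and 353 with diosgenin by probe set 1428143_a_at, 1.30-fold higher, with a log2 ratio of 0.38. Of the 1000 probe sets nearest in signal, 4.5% had a higher ratio. Its second probe set, 1428591_at, was below the filter at 12.0 and 17.8. It was also higher, by 1.48-fold, at a level near the floor. G0s2, the inhibitor, read 601 and 408, 1.47-fold lower, with a log2 ratio of −0.56. It was the lowest ratio among the 7 representative probe sets, just short of 1.5-fold, and 1.8% of the 1000 probe sets nearest in signal had a lower one. G0s2 has 1 probe set, so no second reading exists. Abhd5, the activator, read 347 and 337 by its brightest probe set, a log2 ratio of −0.042, and 267 and 192 by another, a log2 ratio of −0.48. The signals of the lipase were thus higher and those of the inhibitor lower on the diosgenin array. Both activator probe sets above the filter were lower, by unlike amounts. Over the 4079 genes with several probe sets, the median distance was 0.26 and 95% lay within 0.93. The Abhd5 pair also lay within 0.93. Transcript levels do not measure lipase activity, which was not analysed here.

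The 250 bases before the start sites of this pair are shown because the signals of lipase and inhibitor differed in direction between these 2 arrays. Pnpla2 lies on the plus strand at chr7:141454938-141455187 and G0s2 on the minus strand at chr1:193273189-193273438, both in GRCm38.p6. Neither window holds AGGTCA, so neither has capitals.
Pnpla2: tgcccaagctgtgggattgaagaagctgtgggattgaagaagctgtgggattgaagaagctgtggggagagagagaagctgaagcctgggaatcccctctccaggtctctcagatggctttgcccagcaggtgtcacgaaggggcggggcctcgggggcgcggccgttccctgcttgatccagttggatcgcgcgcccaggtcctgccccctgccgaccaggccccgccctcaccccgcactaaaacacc
G0s2: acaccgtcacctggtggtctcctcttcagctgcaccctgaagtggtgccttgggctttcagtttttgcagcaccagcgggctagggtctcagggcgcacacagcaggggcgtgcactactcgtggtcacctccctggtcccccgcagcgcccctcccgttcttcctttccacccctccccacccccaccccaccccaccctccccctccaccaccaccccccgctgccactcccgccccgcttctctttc

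AGGTCA was searched on both strands in the 250 bases before each start site of the RefSeq promoter table. The member windows leave out Cidea. The letters were present in 3 of 11 windows of the members, 1 each of Plin2, Plin5 and Hsd17b13, and in 14.0% of all 32851 windows. The other Plin5 window did not hold them. A direct repeat of AGGTCA with 1 spacing base is the kind of element that PPAR and RXR are known to bind. Its exact letters were in 0 of the 11 windows and in 0.0335% of all windows. At that share 0 would be likely for any 11 windows, so it says nothing about the members. A match only says that these letters are present. The members that hold AGGTCA differ in ratio: Plin2 was near 0, Plin5 was lower and the Hsd17b13 probe sets were split.

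The medians of 4 lists of other genes of the pathway also lay close to 0. Their counts can be read against the whole set of 9732 genes, with 49.0% of ratios above 0 and 51.0% below. In that set 2.84% were past 1.5-fold upward and 3.61% downward. Of the enzymes of triglyceride synthesis and the proteins that form droplets, 13 of 18 were above the filter. Of these 4 were higher and 9 lower, and the median log2 ratio was −0.058. By the brightest probe sets there were none past 1.5-fold in either direction. At the shares just given, none among 13 is not unusual and does not set this list apart. The largest difference was that of Bscl2, seipin, which shapes new droplets at the endoplasmic reticulum. It read 666 and 465, 1.43-fold lower, and a second probe set read 190 and 120, 1.58-fold lower. Fitm1, which helps to partition fat into droplets, was 1.27-fold lower at 212 and 166, and the acyl-CoA synthetase Acsl3 was 1.17-fold lower at 109 and 93.3. Lpin1, a phosphatidate phosphatase, was 1.24-fold higher at 438 and 543, and its second probe set gave 1.25-fold. Seipin was thus lower and lipin 1 higher by both of their probe sets.

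Of the lipases and cofactors, 10 of 12 were above the filter, 3 higher and 7 lower, with a median of −0.044. By the brightest probe set of each gene, the carboxylesterase Ces1g was the only one past 1.5-fold, at 551 and 922, 1.67-fold higher. The monoacylglycerol lipase Abhd6 was 1.41-fold lower at 359 and 255, with a second probe set 1.27-fold lower. Ces1f, a member of a large family read by a shared probe set and therefore uncertain, was 1.13-fold lower and Mgll, which completes the breakdown of triglyceride, 1.12-fold lower. Ces1d, a triglyceride hydrolase named here after its values were seen, read 2617 and 2893 by its brightest probe set, 1.11-fold higher. Its probe set 1435370_a_at read 1809 and 3189, 1.76-fold higher. Its probe set 1435371_x_at, of a kind that can bind other family members, read 268 and 2526, 9.41-fold higher. All 3 were thus higher, and 2 of them past 1.5-fold. Ces1d is 1 of the 3 genes whose probe sets lay farther apart than those of Hsd17b13. Its distance was 3.09, beside 3.06 for Hsd17b13, and it is uncertain for that reason.

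By the brightest probe set of each gene, other proteins found on droplets had the narrowest range of the 4 lists. Of these, 16 of 18 were above the filter, 6 higher and 10 lower, with a median of −0.016 and a range from −0.35 to 0.26. Cav1, caveolin 1, was 1.27-fold lower at 51.5 and 40.4 and Hsd17b11, described above, was the highest. The other Hsd17b11 probe set above the filter, at 0.83, lay outside this range. Spast, a microtubule severing protein, was 1.13-fold lower and the small GTPase Rab18 1.11-fold higher, but their second probe sets were at −0.016 and −0.021.

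The list of transcription factors and cofactors known to act on droplet genes had all of its 18 members above the filter. Higher were 12 and lower 6, and the median was 0.029. The fatty acid sensor Ppard was 2.84-fold lower at 65.7 and 23.1, with no second probe set above the filter. The coactivator Ppargc1a was 1.83-fold higher at 38.7 and 70.9, and its second probe set above the filter was 1.46-fold higher. Both were dim, where the ratios of all genes scatter more widely. Cebpb was 1.38-fold higher at 749 and 1030, with a second probe set 1.21-fold higher, and the deacetylase Sirt1 was 1.26-fold higher at 91.4 and 115. For Ppara the brightest probe set read 1207 and 1126, a log2 ratio of −0.10, and its other two gave 0.21 and 0.31. Ppara thus had probe sets on both sides of 0. Its signals do not measure the activity of the receptor, and its part in the values of the members was not tested. Pparg was 1.24-fold lower at 40.9 and 33.1.

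**Figure D4:**
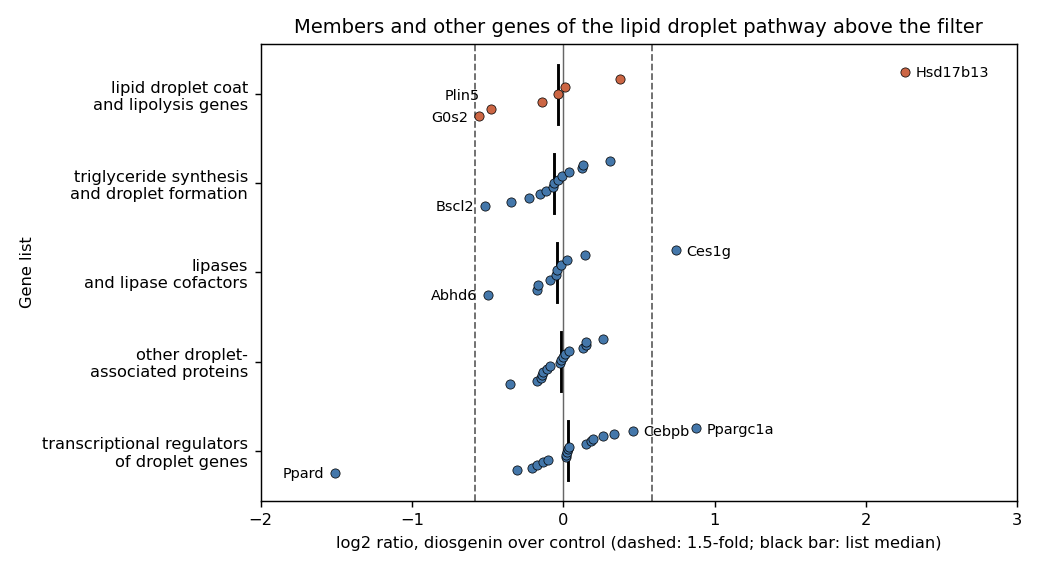
log2 ratios of diosgenin over control for the members (orange) and for the genes of 4 other lists of the pathway (blue), 1 point per gene above the filter, with black bars at the list medians and dashed lines at 1.5-fold. All 5 medians lie between −0.058 and 0.029, and past the dashed lines lie only Hsd17b13, by its brightest probe set, Ces1g, Ppargc1a and Ppard.

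Both arrays had a trimmed mean signal of 96.9, as a common scaling would give, and the tissue label was matched by bright hepatocyte markers, with albumin at 9517 and 8429. Hepatocyte markers had a median log2 ratio of −0.074, with 1 higher and 6 lower of 7, and their summed signals were 61955 and 58325. By their brightest probe sets, Alb was 1.13-fold lower and Apob, which encodes a protein of very low density lipoproteins, 1.22-fold lower. The other Apob probe set above the filter had a log2 ratio of −0.94. The adipocyte markers Adipoq and Lep were under the floor on both arrays, at 5.23 and 5.88 and at 0.60 and 0.95. Of 8 adipocyte markers 3 were above the filter, Fabp4 at 1.15-fold lower, Lipe at 1.03-fold lower and Car3, with summed signals of 10036 and 10078 over the list, nearly all from Car3, which hepatocytes also express. Ucp1, the defining gene of brown adipocytes, was at 2.25 and 2.04, and of that list only Elovl3, a gene that liver expresses itself, was above the filter, 1.65-fold lower. The skeletal muscle markers had 0 of 5 genes above the filter. All 7 stellate cell markers above the filter were higher, from 0.021 to 0.44, with summed signals of 2597 and 3130 over the list, and Hgf and Dcn were the highest, 1.36-fold and 1.30-fold. These are the brightest probe sets: other probe sets of Rgs5 above the filter had log2 ratios of −0.74 and 0.28, and Col1a1, below the filter, read 31.3 and 17.2. Of 8 endothelial markers 7 were lower by their brightest probe sets, with a median of −0.25 and summed signals of 2186 and 1594. By those probe sets Clec4g, 1.61-fold lower, and Fcgr2b, at a log2 ratio of −0.59, were the lowest. Other probe sets of Fcgr2b above the filter had log2 ratios of −0.49, −0.29 and −0.17. Of 8 Kupffer cell markers 6 were higher, with a median of 0.11 and sums of 2272 and 2504, led by Marco, dim at 13.3 and 45.1, and Clec4f at 1.29-fold. Bile duct markers had 2 genes above the filter, Tff3 4.11-fold higher and Sox9 1.61-fold lower, with sums of 130 and 158 over the list. Without Tff3 the sums were 106 and 58.1, and Krt19 and Epcam, below the filter, read 25.6 and 13.2 and 28.4 and 10.2. The part of these cell types in the values of the members was not tested.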

How the data were processed

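Per the labels' protocols, 5 µg of total liver RNA pooled from 3 mice was labelled with biotin for each array. The deposited values are array intensities on a linear scale, and the submitters' processing notes name GCOS without a version. How probes were summarised, the scaling target and any detection call: not given in the sources used here. Of 45101 probe sets 34958 had 1 gene symbol in the platform annotation, 932 had several and 9211 had none, and the last 2 kinds were left out. All 10 member symbols matched the RefSeq gene table of GRCm38.p6, used for names and neighbours. Signals under a floor of 10.7 were set to it before log2 was taken. The filter was a mean signal of 28.4. Fold changes are ratios of floored signals. With 1 array per diet no test was run, and the number of arrays limits the precision. Members, lists, thresholds and the rule for names were chosen with earlier results of these data known. Named were all members with every probe set, up to 4 genes with the largest ratio in size per pathway list and up to 2 per marker list. Outside this rule, Abhd5, Ppara, Pparg, Ces1d, Adipoq, Lep, Ucp1, Car3, Rgs5, Col1a1, Krt19 and Epcam were named after their values were seen. With 2 arrays no likeness of patterns across samples can be computed. The listed genes Acsl1, Lipc, Plin1, Cfd, Tf and Spp1 were not analysed here. RefSeq upstream sequences came from the promoter table of the same build, for 9 members, all but Cidea. The counting was tested on simulated arrays. Alternatives were other floors and filters, a pseudocount of 16, other ways to represent a gene, centring and quantile normalization. Python 3.11.15, pandas 2.3.3 and numpy 2.4.6 were used.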

Additional observations from a re-analysis of the deposited data

How the results depend on the processing

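Across 9 alternatives and 2 added after seeing the data, the log2 ratios of Plin2, Plin3, Plin5, Cideb, Pnpla2 and G0s2 and the medians of the members and of the 4 pathway lists moved by less than 0.28, except that Cideb and Pnpla2 have no value without probe sets ending in _x_at, _s_at or _a_at. The member median lay between −0.14 and −0.018. Hsd17b13 was the exception, with 2.26 by its brightest probe set, 0.73 by the median of both and −0.80 by the other probe set alone, an alternative chosen after seeing the data. With that other probe set, 0 members were at least 1.5-fold higher, beside 2.83% of all genes above the filter. At least 1.5-fold lower was 1 member, beside 3.62% of all genes. Without Hsd17b13, also chosen after seeing the data, 0 were at least 1.5-fold higher, beside 2.83% of all genes. Without probe sets ending in _x_at, _s_at or _a_at, 5 members were left above the filter, Cideb and Pnpla2 being lost. Of these 5, 1 was at least 1.5-fold lower, Plin5, beside 3.58% of the 8153 genes left. At least 1.5-fold higher was 1, Hsd17b13, beside 3.14% of those genes. There 1 member still had several probe sets, and 0 members with several probe sets had a single sign. Without the signal filter 2 of 3 such members had a single sign, since Pnpla2 was added. Shares over all genes with a single sign were not computed for the alternatives. No paired analysis was possible because each diet has 1 array. Plin4, Cidea and Cidec are too close to the floor for a ratio. A difference of the size seen for Plin5, G0s2 or Pnpla2 cannot be set against the spread between mice.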
